A study of Mus musculus with 7 samples.

Results

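The proteasome genes of the mouse liver were taken as every listed gene whose symbol begins with Psm, a letter from a to g and a number. Of 21706 listed genes, 51 matched, and 49 of these encode known subunits, activators, an inhibitor or assembly chaperones of the proteasome. The other 2 matched by symbol only: Psmc3ip, a cofactor of meiotic recombination, and Psme3ip1, a protein that binds the activator Psme3. Hepatic mRNA came from male C57BL/6 mice, an inbred wild-type strain, aged 8 weeks when treatment began. They were injected into the peritoneum for 2 weeks with a control oligonucleotide (control oligo, 4 mice) or with a synthetic oligonucleotide, tsRNA-Glu-CTC oligo-1 (oligo-1, 3 mice), which has the sequence of a fragment of a glutamate transfer RNA. Both groups were kept on semisynthetic low-fat, low-cholesterol food, and every library stands for a single mouse, per the study's methods. Levels are in TPM, a share of all transcripts that corrects for transcript length, so genes can be compared with each other, but the sequencing depth is unknown. The tissue was whole liver, in which fewer cells of a type and less RNA per cell cannot be told apart.

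The proteasome degrades proteins that have been tagged with chains of ubiquitin. Its 20S core is a barrel of alpha and beta rings whose catalytic beta subunits cut the substrate, and its 19S cap, built of ATPases (Rpt) and non-ATPases (Rpn), recognises, unfolds and feeds in tagged proteins. Under interferon gamma, and constantly in many immune cells, the catalytic subunits Psmb6, Psmb7 and Psmb5 are replaced in newly built cores by Psmb9, Psmb10 and Psmb8, which gives the immunoproteasome and favours peptides that fit MHC class I molecules. PA28, built of Psme1 and Psme2, is an alternative cap that interferon gamma also induces, and Psmg1 to Psmg4 with Pomp assemble the core.

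The genes for 2 of the immunoproteasome subunits lie together in the MHC region. Psmb9 (ENSMUSG00000096727.3, chr17:34181987-34187764, minus strand, GRCm38) ends 9956 bases before Psmb8 (ENSMUSG00000024338.15, chr17:34197721-34201454, plus strand) begins, with Tap1, a subunit of the peptide transporter, between them. The GENCODE spans of Psmb9 and Tap1 overlap by 212 bases on opposite strands. The RefSeq start of Psmb9 used for its promoter below lies downstream of that overlap, so a transcript from that start does not cover it. No source used here says whether the libraries kept strand, so reads of that overlap cannot be told apart. Psmb10 (chr8:105935735-105938444), Psmb5 (chr14:54614119-54618022), Psmb6 (chr11:70525367-70527858) and Psmb7 (chr2:38588036-38644087) lie apart from them.

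The promoters of Psmb8, Psmb9 and the constitutive subunits they replace are shown because the comparison turns on these pairs. Each runs from 250 bases before to 50 bases after the RefSeq start (GRCm38.p6, the same assembly as mm10), 5′ to 3′ on the gene's own strand. The windows are chr17:34197945-34198244 (plus) for Psmb8, chr14:54617946-54618245 (minus) for Psmb5, chr17:34187281-34187580 (minus) for Psmb9 and chr11:70525107-70525406 (plus) for Psmb6. The Psmb8 window lies wholly inside the GENCODE span of Psmb8 given above, downstream of its annotated start. Capitals mark matches to the motifs searched.
Psmb8: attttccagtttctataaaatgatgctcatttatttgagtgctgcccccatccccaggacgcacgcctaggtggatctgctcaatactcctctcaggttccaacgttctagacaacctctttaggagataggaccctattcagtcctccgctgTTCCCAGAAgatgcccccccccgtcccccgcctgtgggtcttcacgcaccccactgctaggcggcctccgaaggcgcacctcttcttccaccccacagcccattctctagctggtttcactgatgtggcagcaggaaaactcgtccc
Psmb5: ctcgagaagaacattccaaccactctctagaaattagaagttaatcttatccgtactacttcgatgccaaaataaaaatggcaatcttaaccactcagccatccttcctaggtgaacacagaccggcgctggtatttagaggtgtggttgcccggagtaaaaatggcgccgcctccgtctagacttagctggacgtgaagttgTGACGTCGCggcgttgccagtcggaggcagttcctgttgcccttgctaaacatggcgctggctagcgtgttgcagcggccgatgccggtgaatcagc
Psmb9: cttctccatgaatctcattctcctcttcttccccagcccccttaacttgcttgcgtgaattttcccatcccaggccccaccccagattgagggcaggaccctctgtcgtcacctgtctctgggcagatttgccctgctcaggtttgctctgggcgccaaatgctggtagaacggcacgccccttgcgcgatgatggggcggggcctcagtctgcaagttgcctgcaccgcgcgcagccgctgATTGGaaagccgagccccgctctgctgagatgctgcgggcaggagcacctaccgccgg
Psmb6: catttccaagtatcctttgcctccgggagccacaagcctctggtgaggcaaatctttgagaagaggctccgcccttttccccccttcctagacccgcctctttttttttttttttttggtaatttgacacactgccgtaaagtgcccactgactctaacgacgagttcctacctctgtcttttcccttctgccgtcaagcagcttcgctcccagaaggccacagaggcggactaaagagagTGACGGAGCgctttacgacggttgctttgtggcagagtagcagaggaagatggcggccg

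The capitals in Psmb8 match TTCNNNGAA, the core of the gamma-activated site that STAT factors bind. Those in Psmb5 and Psmb6 match TGACNNNGC, the core of the antioxidant response element that NRF1 and NRF2 bind. Those in Psmb9 are CCAAT on the opposite strand. Promoters were found for 43 of the 51 genes, and both strands were searched. A proteasome gene was counted once if any of its promoter entries matched, whereas the share over all promoters counts entries. The shares set side by side below thus differ in unit, and their difference was not tested. TGACNNNGC was present in 6 of 43 (14%), beside 12.4% of all 32851 RefSeq promoters. Its other holders were Psmc6, Psmd12, Psmd9 and Psme4. TTCNNNGAA was present in 3 of 43 (6.98%, all promoters 8.30%), namely Psmb8, Psmd2 and Psmg1. The core of the interferon-stimulated response element, a repeated GAAA with any 2 bases between the copies, was present in 5 of 43 (11.6%, all promoters 3.44%): Psmb3, Psmd4, Psmd9, Psme1 and Psmg4. CCAAT was present in 16 of 43 (37.2%, all promoters 37.4%). The searched motifs do not overlap in the windows shown, and a match describes letters, not binding.

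The 7 libraries were not alike within the control group. Over the 10455 tested genes, controls 1 and 4 correlated at 0.988 with each other and at 0.928 to 0.947 with the remaining libraries, which correlated at 0.965 to 0.987 among themselves. The major urinary protein genes accounted for 1.44% (control 1) and 1.63% (control 4) of listed TPM, and for 8.45% to 12.7% in each remaining library. Summed TPM of 11 Kupffer cell and macrophage markers was 676 and 872 in controls 1 and 4 against 106 and 94.8 in controls 2 and 3, and lay between 121 and 152 in the oligo-1 libraries. All 11 markers had their highest values in controls 1 and 4, and none was listed at 0 in any library. The 6 pan-leukocyte markers summed to between 17.6 and 137 in controls and 14.7 and 25.2 in oligo-1, and the 7 stellate cell and fibroblast markers to between 97.6 and 350 in controls and 90.8 and 101 in oligo-1, again highest in controls 1 and 4. T and NK cell markers summed to at most 9.50, with Cd2, Nkg7, Klrb1c and Lck each listed at 0 in at least 1 library. Neutrophil markers summed to between 1.30 and 15.8, dendritic cell markers to between 4.17 and 10.2, endothelial markers to between 55.8 and 87.2 and cholangiocyte markers to between 22.3 and 54.5 over the 7 libraries. The 10 hepatocyte markers summed to between 72680 and 87400 and none was at 0. Results are therefore also given without controls 1 and 4, and the part of these differences in the results below was not tested.

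By their medians the core genes were expressed above those of the cap, and each immunoproteasome gene lay well below the constitutive subunit it replaces. The 14 constitutive 20S genes had means over the 7 libraries between 30.2 (Psma2) and 188 TPM (Psmb6), with a median of 115, and the 17 genes of the 19S cap lay between 27.1 and 122 TPM, with a median of 47.1. The 3 immunoproteasome genes had means of 13.0 (Psmb8), 12.7 (Psmb9) and 30.0 TPM (Psmb10), of which the last lay close to the lowest core and cap genes. PA28 stood with the core, at 95.9 TPM for Psme1 and 95.1 for Psme2. All 51 genes together took between 0.295% (control 2) and 0.424% (control 4) of the listed TPM.

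**Figure D1:**
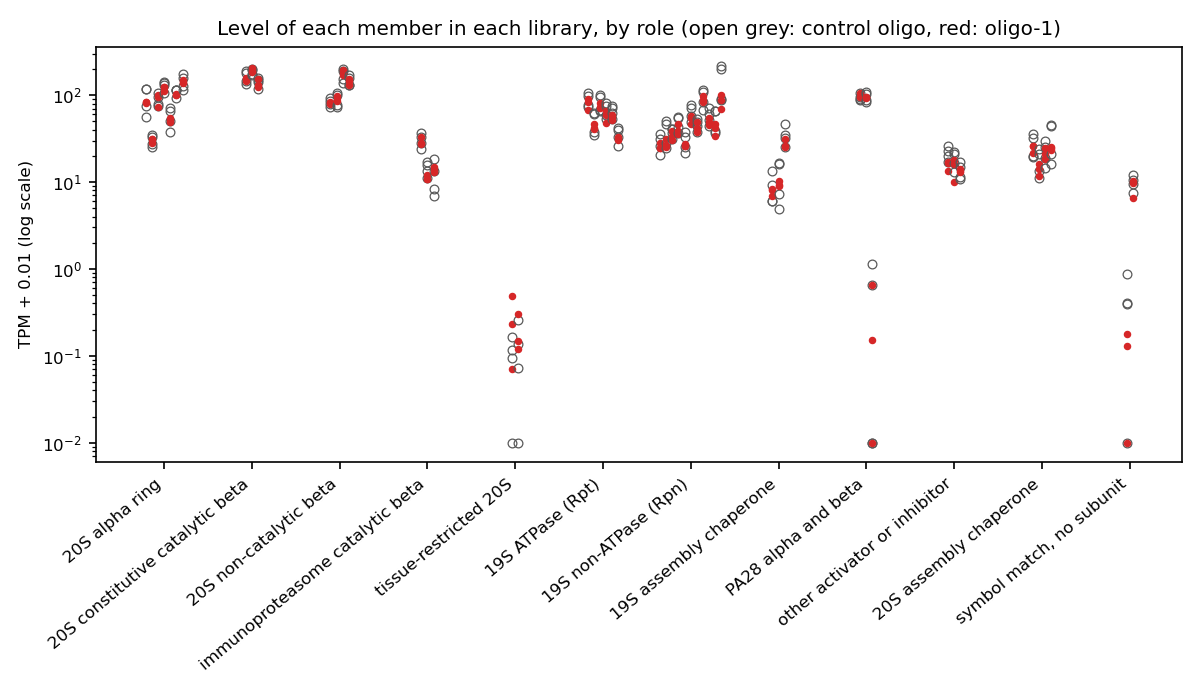
TPM plus 0.01 on a log scale for each of the 51 genes (1 column of points per gene, in symbol order within each role) in each of the 7 libraries; open grey points are the 4 control libraries and red points the 3 oligo-1 libraries, and a value of 0 sits at 0.01. The immunoproteasome genes, at 12.7 to 30.0 TPM on average, lie below the constitutive catalytic genes, at 139 to 188 TPM.

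A total of 4 genes (Psma8, Psmb11, Psme2b and Psmc3ip) did not pass the filter of at least 1 TPM in at least 3 libraries and were not tested. Psma8, the alpha subunit of the testis, reached at most 0.472 TPM, and Psmb11, the catalytic subunit of the thymic cortex, at most 0.290 TPM. Psme2b, a second gene for the Psme2 subunit that may share reads with it, reached 1.13 TPM in control 1 and was listed at 0 in 3 libraries. Psmc3ip reached at most 0.869 TPM. The other 47 genes were tested.

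No proteasome gene passed the test between the groups. With limma on log2(TPM + 1) and Benjamini-Hochberg adjustment over all 10455 tested genes, 0 of 47 were called at an adjusted p below 0.05, as were 0% of all tested genes, and the smallest adjusted p among the 47 was 0.768. At an unadjusted p below 0.05, 0 of 47 were higher (1.81% of all tested genes) and 0 of 47 were lower (4.25%). In 0 of 47 did all oligo-1 libraries lie above all controls (2.00% of all tested genes), and in 0 of 47 did all lie below them (4.98%). The 47 differences, oligo-1 minus control, ran from -0.67 (Psmd8) to 0.31 (Psmb9) on the log2 scale, with a median of -0.10, beside -0.16 over all tested genes. After median-ratio scaling of the libraries the medians were 0.07 and -0.01, so the proteasome median turned sign while its distance from that of all genes changed little. Without controls 1 and 4 they were 0.13 and 0.06.

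The intervals show what sizes these data allow. The 95% intervals of 44 of 47 genes lay within a 2-fold difference in either direction, and those of 22 within 1.5-fold. For the constitutive 20S genes, 14 of 14 lay within 2-fold and 12 within 1.5-fold. The exceptions at 2-fold were Psmb9, Psmd8 and Psmg4, whose intervals reached 1, -1.44 and -1.03 on the log2 scale. The intervals are per gene and carry no correction for the number of genes.

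**Figure D2:**
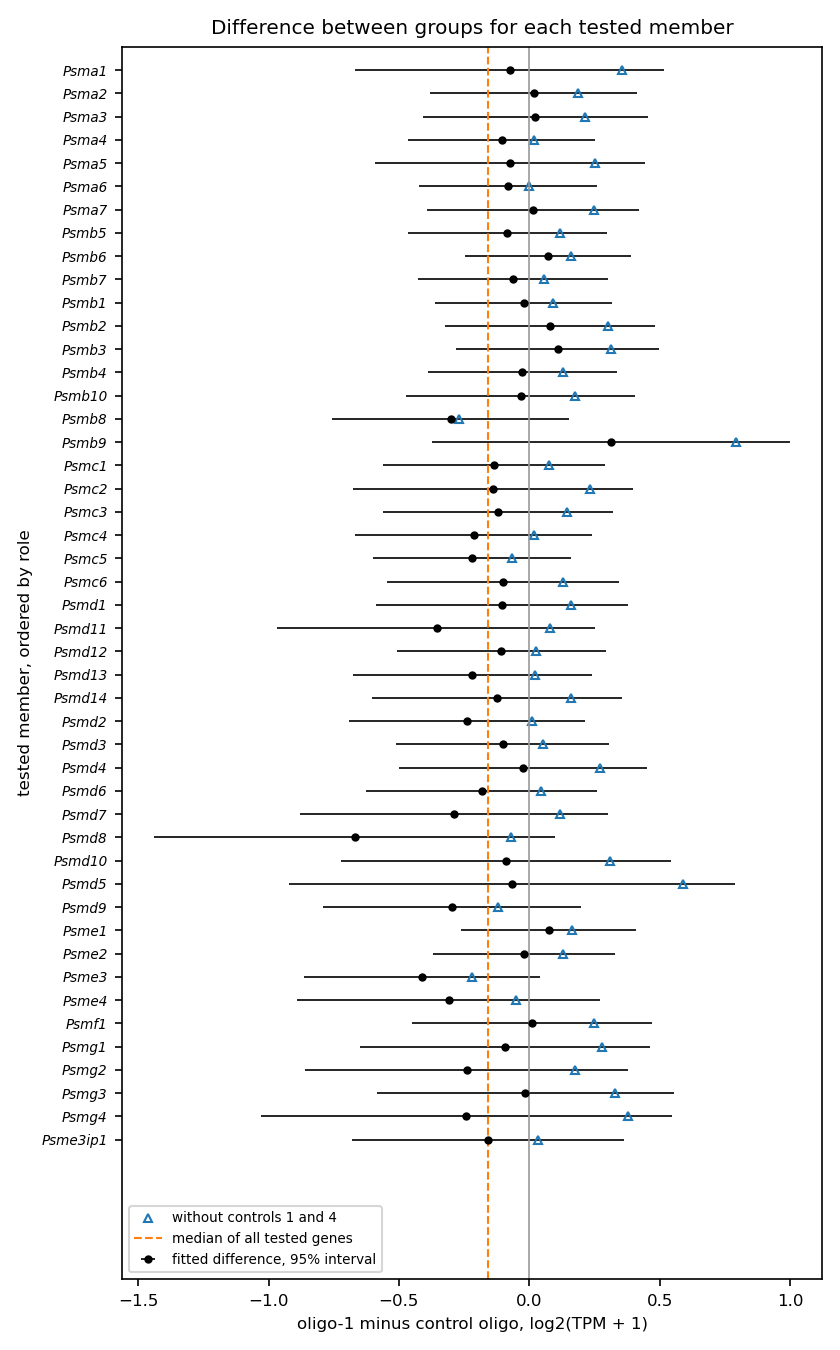
Fitted difference between oligo-1 and control oligo on the log2(TPM + 1) scale for each of the 47 tested genes, ordered by role; points and lines are the limma estimate with its 95% interval over 7 libraries, triangles the estimate without controls 1 and 4, and the dashed line the median of all tested genes, -0.16. Every interval crosses 0, and Psmb9 has the highest estimate both with all libraries, 0.31, and without controls 1 and 4, 0.79.

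Psmb8, the beta5 subunit of the immunoproteasome, was at 13.2, 17.1, 10.98 and 15.7 TPM in controls 1 to 4 and at 10.9, 12.0 and 10.8 TPM in oligo-1 libraries 1 to 3. Control 3 lay among the oligo-1 libraries, the other controls lay above them, and control 2 was highest. The difference was -0.30 on the log2 scale (SE 0.20, limma, adjusted p = 0.775). Psmb5, the constitutive subunit of the same site, was at 181, 145, 134 and 189 TPM in controls and at 159, 144 and 151 TPM in oligo-1. The groups overlapped, and the difference was -0.08 (limma, adjusted p = 0.887).

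Psmb9, the beta1 subunit of the immunoproteasome, was at 13.2, 6.91, 8.30 and 18.5 TPM in controls and at 13.1, 13.8 and 14.7 TPM in oligo-1. The controls spread on both sides of the oligo-1 libraries, with controls 2 and 3 below them and control 4 above. The difference was 0.31 on the log2 scale (SE 0.31, limma, adjusted p = 0.786). Without controls 1 and 4, which held the higher values of the group, it was 0.79 (SE 0.19, limma, unadjusted p = 0.002, adjusted p = 0.203). In that setting 6.97% of all tested genes were higher at an unadjusted p below 0.05. Psmb6, the constitutive counterpart of Psmb9 and the most abundant gene of the set, was at 194, 174, 171 and 197 TPM in controls and at 207, 190 and 183 TPM in oligo-1. These values overlapped, with a difference of 0.07 (limma, adjusted p = 0.886).

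Psmb10, the beta2 subunit of the immunoproteasome, was at 33.0, 28.2, 23.7 and 36.7 TPM in controls and at 33.0, 27.5 and 27.8 TPM in oligo-1. Psmb7, which it replaces, was at 150, 118, 142 and 156 TPM in controls and at 153, 129 and 124 TPM in oligo-1. Both pairs of groups overlapped over most of their range. The differences were -0.03 for Psmb10 and -0.06 for Psmb7 on the log2 scale, each below its SE (0.20 and 0.16), and both turned positive after median-ratio scaling, at 0.14 and 0.12.

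**Figure D3:**
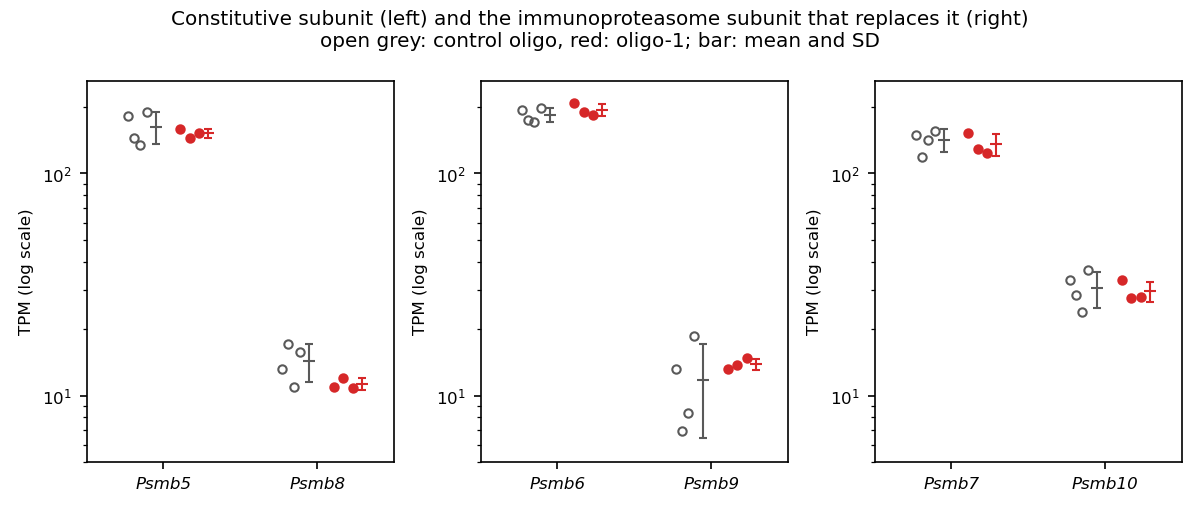
TPM on a log scale of the 3 constitutive catalytic subunits and the immunoproteasome subunits that replace them; open grey points are the 4 control libraries, red points the 3 oligo-1 libraries, and bars the mean and SD of each group. Psmb9 shows the widest spread among controls, from 6.91 to 18.5 TPM, around the narrow oligo-1 range of 13.1 to 14.7 TPM.

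The ratio of each immunoproteasome gene to its counterpart within a library does not depend on a scaling factor per library, apart from the pseudocount. The immunoproteasome share of the pair, immunoproteasome TPM over the sum of both, was 6.79%, 10.6%, 7.55% and 7.68% in controls and 6.40%, 7.71% and 6.67% in oligo-1 for Psmb8 with Psmb5. It was 6.39%, 3.82%, 4.63% and 8.58% in controls and 5.96%, 6.77% and 7.44% in oligo-1 for Psmb9 with Psmb6. For Psmb10 with Psmb7 it was 18.1%, 19.3%, 14.3% and 19.1% in controls and 17.8%, 17.6% and 18.4% in oligo-1. The groups overlapped for every pair, and the highest and the lowest share of each pair were control libraries, except that the lowest Psmb8 share was in oligo-1 1. On the log2 scale the ratio differed by -0.22 for Psmb8 to Psmb5 (exact permutation test over 35 arrangements, 2-sided, p = 0.314), by 0.24 for Psmb9 to Psmb6 (exact permutation p = 0.457) and by 0.03 for Psmb10 to Psmb7 (exact permutation p = 0.971). Adjusted over the 3 ratios, the exact permutation p values were 0.686, 0.686 and 0.971, where 0.0286 is the smallest unadjusted p that 4 against 3 libraries allow. Without control 2 the first ratio differed by -0.08 and the second by 0.07.

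Psmb8 and Psmb9, neighbours in the MHC region, did not move together in every library. The ratio of Psmb8 to Psmb9 TPM was 1.001, 2.48, 1.32 and 0.85 in controls and 0.83, 0.88 and 0.74 in oligo-1. Control 2 stood out because it had the highest Psmb8 and the lowest Psmb9 of all 7 libraries. Tap1, whose GENCODE span overlaps that of Psmb9, was at 7.71, 3.74, 5.76 and 12.0 TPM in controls and at 5.61, 6.16 and 7.59 TPM in oligo-1, and was also lowest in control 2 and highest in control 4. These ratios were looked at after the values were seen and were not tested.

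The alpha ring, which gates the entry to the core, showed 3 of 7 genes with a fitted difference above 0 and 4 below, with a median of -0.08. Psma7, its most abundant member, was at 158, 114, 126 and 174 TPM in controls and at 150, 136 and 142 TPM in oligo-1, so that the oligo-1 libraries lay inside the control range. Psma4, the member of smallest p, was at 138, 106, 131 and 143 TPM in controls and at 123, 111 and 124 TPM in oligo-1, also inside it. Their differences were 0.02 and -0.11 (limma, adjusted p = 0.984 and 0.849). Among the 4 beta subunits without catalytic activity, Psmb3 had both the highest level and the smallest p, with 191, 155, 138 and 197 TPM in controls and 196, 169 and 181 TPM in oligo-1. Its difference of 0.11 (limma, adjusted p = 0.856) lay within the spread between mice.

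The 19S cap had 17 of 17 fitted differences below 0, from -0.67 to -0.02 with a median of -0.14, close to the median of all tested genes, of which 73.6% had a fitted difference below 0. In all 17 the highest values were those of controls 1 and 4, and after median-ratio scaling the median was 0.04. Psmc1 (Rpt2), the most abundant of the ATPases that unfold substrates, was at 105, 73.0, 77.3 and 98.2 TPM in controls and at 89.4, 82.3 and 67.8 TPM in oligo-1. Psmc5 (Rpt6), the ATPase of smallest p, was at 70.3, 62.9, 53.6 and 74.2 TPM in controls and at 52.0, 56.2 and 58.5 TPM in oligo-1. For both, every oligo-1 library lay below controls 1 and 4. The 3 oligo-1 values enclosed controls 2 and 3 in Psmc1, and control 3 alone in Psmc5. The differences were -0.14 and -0.22 (limma, adjusted p = 0.836 and 0.775).

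Psmd8 (Rpn12), a subunit of the lid of the cap, had the most negative difference of the 47 genes and was the most abundant of the non-ATPases. It was at 197, 88.7, 90.1 and 217 TPM in controls and at 99.6, 89.0 and 69.8 TPM in oligo-1. Controls 1 and 4, the libraries highest in the macrophage markers, were far above every other library, while controls 2 and 3 lay within the oligo-1 range. The difference was -0.67 on the log2 scale (SE 0.34, limma, unadjusted p = 0.081, adjusted p = 0.768), and -0.07 without controls 1 and 4. Psmd7 (Rpn8), another lid subunit, was at 66.4, 36.3, 38.2 and 66.2 TPM in controls and at 46.6, 42.1 and 33.9 TPM in oligo-1. The ratio of Psmd8 to Psmd7 was 2.97, 2.44, 2.36 and 3.28 in controls and 2.14, 2.11 and 2.06 in oligo-1. Controls 1 and 4 were thus highest in Psmd8 also relative to the other lid gene, and controls 2 and 3 too lay above every oligo-1 library in this ratio. That ratio was chosen after the values were seen and was not tested. Psmd14 (Rpn11), the deubiquitinase of the lid, was at 37.4, 21.4, 25.5 and 33.0 TPM in controls and at 25.8, 25.9 and 27.1 TPM in oligo-1, and Psmd4 (Rpn10), a ubiquitin receptor, differed by -0.02 (SE 0.21).

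Summed over genes, the core and the cap did not keep one proportion across the controls. The 14 constitutive 20S genes summed to 1793, 1376, 1469 and 1852 TPM in controls and to 1686, 1515 and 1591 TPM in oligo-1, and the 17 genes of the cap to 1246, 796, 826 and 1237 TPM in controls and 922, 854 and 800 TPM in oligo-1. The ratio of the sums was 1.44, 1.73, 1.78 and 1.497 in controls and 1.83, 1.77 and 1.99 in oligo-1. It was lowest in controls 1 and 4, and control 3 overlapped with the oligo-1 range. Controls 1 and 4 were the highest 2 libraries in 38 of 47 proteasome genes (80.9%), beside 51.5% of all tested genes. Within the set this held for 17 of 17 cap genes, 9 of 14 constitutive core genes, 4 of 4 Psmg genes and 1 of 3 immunoproteasome genes. Control 1 or control 4 was highest in 44 of the 47 and neither was lowest in any, while control 2 was lowest in 20.

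**Figure D4:**
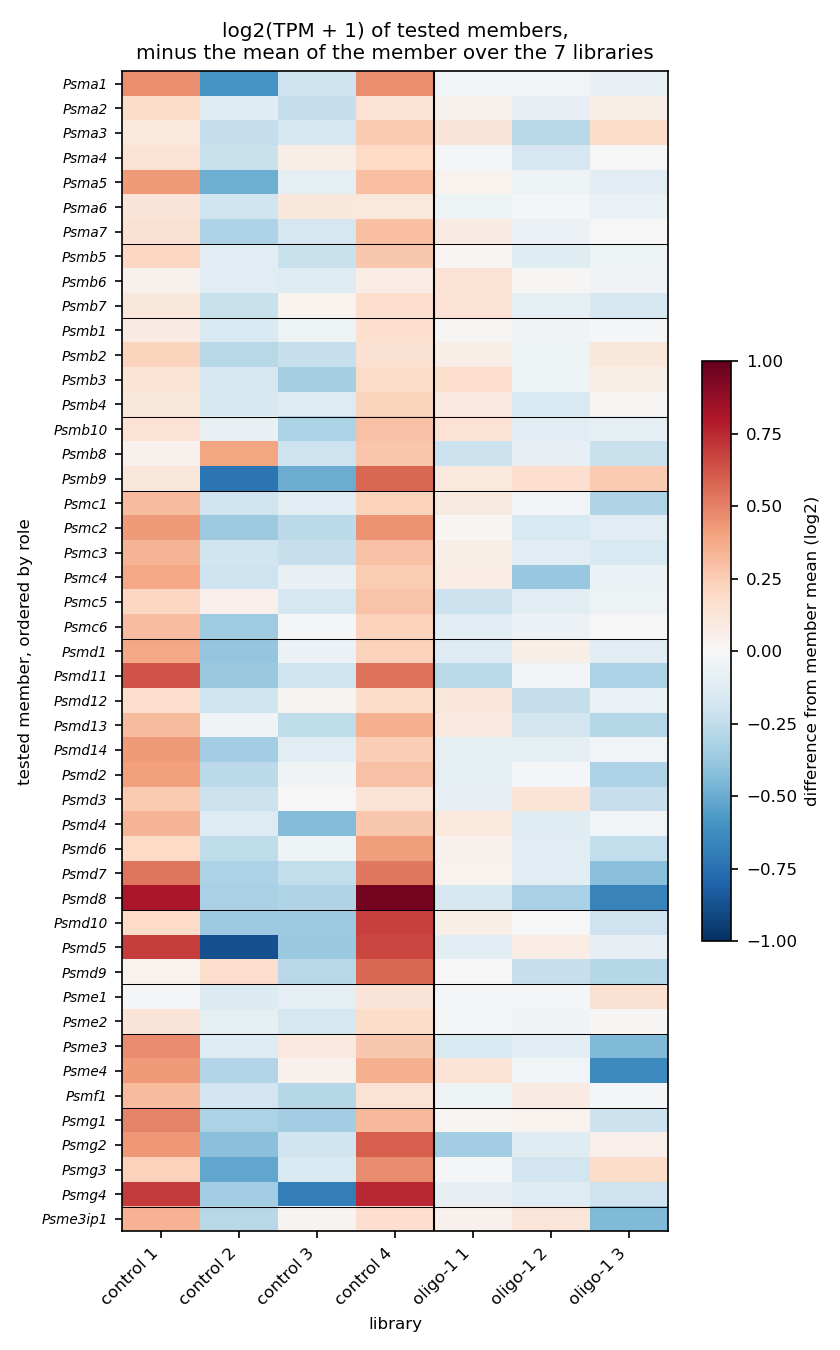
Log2(TPM + 1) of each of the 47 tested genes in each of the 7 libraries, minus the mean of the gene over the libraries; columns are libraries, rows genes ordered by role with lines between roles, red above and blue below the mean. Controls 1 and 4 are the highest 2 libraries in 38 of 47 rows, with the deepest red at Psmd8. In controls 1 and 4 the median over rows is 0.138 and 0.189 for the constitutive core, beside 0.339 and 0.288 for the cap. Single core rows, such as Psma1, are deeper than some cap rows, such as Psmd3.

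PA28 differed little between the groups beside its spread. Psme1 was at 94.5, 86.8, 89.1 and 105 TPM in controls and at 94.5, 95.1 and 106 TPM in oligo-1. Psme2 was at 104, 88.3, 83.7 and 108 TPM in controls and at 94.0, 92.4 and 95.7 TPM in oligo-1. The ranges overlapped in both, and the differences were 0.07 and -0.02 (SE 0.15 and 0.16, limma, adjusted p = 0.887 and 0.974). Psme3, the nuclear activator PA28 gamma, had the smallest unadjusted p of the set, at 26.1, 16.9, 19.9 and 22.5 TPM in controls and 16.6, 17.1 and 13.4 TPM in oligo-1. Control 2 lay among the oligo-1 libraries, and the difference was -0.41 (SE 0.20, limma, unadjusted p = 0.070, adjusted p = 0.768), and -0.22 without controls 1 and 4. Psme3ip1, the protein that binds it, was at 12.2, 7.54, 9.53 and 10.6 TPM in controls and at 9.67, 10.2 and 6.59 TPM in oligo-1, a difference of -0.16 (SE 0.23). Psme4 (PA200), another nuclear activator, and Psmf1, an inhibitor of the core, differed by -0.31 (SE 0.26) and 0.01 (SE 0.20).

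The assembly chaperones of the core, Psmg1 to Psmg4, had 4 of 4 fitted differences below 0, beside 73.6% of all tested genes, with a median of -0.17, and a median of 0.30 without controls 1 and 4. Psmg4 was at 44.1, 20.9, 16.2 and 45.7 TPM in controls and at 25.3, 24.4 and 23.1 TPM in oligo-1. Psmg2 was at 21.1, 11.2, 13.2 and 23.8 TPM in controls and at 11.8, 14.03 and 15.9 TPM in oligo-1. In both, controls 1 and 4 were above every oligo-1 library, and controls 2 and 3 lay below the oligo-1 libraries in Psmg4 but not in Psmg2. The differences were -0.24 for each (SE 0.35 and 0.28, limma, adjusted p = 0.844 and 0.815). Psmd9, a chaperone of the cap, was at 31.8, 35.2, 25.4 and 46.5 TPM in controls and at 31.1, 26.3 and 25.3 TPM in oligo-1, a difference of -0.30 (SE 0.22, limma, adjusted p = 0.775). Psmd5, another cap chaperone, was at 16.4, 4.84, 7.31 and 16.1 TPM in controls and at 8.99, 10.3 and 9.15 TPM in oligo-1. It changed most with the choice of controls, from -0.07 with all libraries to 0.59 without controls 1 and 4 (limma, unadjusted p = 0.025, adjusted p = 0.432). Psmd5 and Psmb9 were the 2 of 47 genes higher at an unadjusted p below 0.05 without those controls, beside 6.97% of all tested genes, and 0 of 47 were lower, beside 2.75%.

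Genes that work with the proteasome were counted in the same way, beside 1.81% higher and 4.25% lower among all tested genes, whose median was -0.16. Among 16 tested partners, which include the core maturation factor Pomp, the nuclear import factor Akirin2 and cofactors of the ATPase Vcp, 0 were higher and 0 lower at an unadjusted p below 0.05, with a median of -0.23 that became -0.06 after median-ratio scaling and -0.004 without controls 1 and 4. Nploc4, a Vcp cofactor, and Akirin2 had the smallest p, with differences of -0.50 (SE 0.26) and -0.34 (SE 0.22), and of -0.15 and -0.04 without controls 1 and 4. Among 10 genes around NRF1 (Nfe2l1), the transcription factor that raises proteasome genes when proteasome activity falls, 0 were higher and 0 lower, with a median of -0.22 that became -0.05 after median-ratio scaling. Without controls 1 and 4 the median was -0.09 and 1 was lower, Maff, a small MAF partner of NRF1 and NRF2, at -0.81 (limma, unadjusted p = 0.011, adjusted p = 0.345). Among all tested genes in that setting, 2.75% were lower and the median was 0.06. A single gene in 10 is too few to set against that share. Nfe2l1 itself was at 32.3, 28.3, 33.9 and 31.2 TPM in controls and at 30.4, 28.7 and 23.3 TPM in oligo-1. Controls 1 and 4 did not stand apart in Nfe2l1. Ngly1, which removes glycans from NRF1, and Stat3 differed by -0.30 (SE 0.24) and -0.31 (SE 0.18), and by -0.13 and -0.20 without those controls. Ubb, a ubiquitin gene whose repeated units make its value uncertain, differed by -0.27 (SE 0.21), and Uba1, the activating enzyme, by -0.22 (SE 0.18), and without those controls by -0.01 and -0.10.

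In the interferon gamma axis, 0 of 10 tested genes were higher and 1 was lower at an unadjusted p below 0.05, beside 1.81% and 4.25% of all tested genes, and a single gene in 10 is too few to set against that share. That gene was Ifngr1, a chain of the interferon gamma receptor, at 19.1, 7.20, 6.83 and 24.2 TPM in controls and at 3.66, 4.79 and 2.62 TPM in oligo-1. Its groups did not overlap, and controls 1 and 4 were again far above controls 2 and 3. The difference was -1.54 on the log2 scale (SE 0.43, limma, unadjusted p = 0.006, adjusted p = 0.549) and -0.80 without controls 1 and 4 (SE 0.24, limma, adjusted p = 0.328). Jak1, the kinase bound to that receptor chain, differed by -0.42 (SE 0.22), and by -0.11 without controls 1 and 4. Ifng, the cytokine, was at most 0.190 TPM in any library, and Ciita also failed the filter. Irf1, a factor that binds the Psmb9 promoter region under interferon gamma, was at 16.6, 8.76, 15.1 and 14.6 TPM in controls and at 13.4, 16.2 and 15.1 TPM in oligo-1. Like Psmb9 it was lowest in control 2, but it was highest in control 1, whereas Psmb9 was highest in control 4. Control 2 was lowest in 20 of the 47 tested proteasome genes, and a link of Irf1 to Psmb9 was not tested.

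Of 14 genes for antigen processing and MHC class I, 1 was higher and 1 lower at an unadjusted p below 0.05 (1.81% and 4.25% of all tested genes), and 1 had its oligo-1 libraries above all controls and 2 below them (2.00% and 4.98%). Counts this small do not set the list apart from those shares. H2-Q7, a class Ib molecule whose near-identical relatives share reads with it, was at 33.0, 43.3, 58.8 and 57.9 TPM in controls and at 60.5, 67.6 and 82.8 TPM in oligo-1. Erap1, which trims peptides for class I molecules, was at 20.2, 21.3, 21.8 and 17.7 TPM in controls and at 13.5, 17.6 and 11.4 TPM in oligo-1. The groups met closely in both, at 58.8 and 60.5 TPM for H2-Q7 and at 17.7 and 17.6 TPM for Erap1. The differences were 0.56 (SE 0.23, limma, adjusted p = 0.768) and -0.50 (SE 0.20, limma, adjusted p = 0.768), and without controls 1 and 4 they were 0.46 and -0.59. The other gene without overlap was H2-D1, and B2m, the light chain of class I, differed by -0.14 (SE 0.15).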

How the data were processed

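Total liver RNA was isolated with TRIzol and sequenced by the standard Illumina procedure, and protein-coding genes were quantified with kallisto by the authors (version not given in the sources used here; build mm10 per the labels). The deposited TPM values were made by the authors from estimated reads divided by effective transcript length and scaled to a fixed total per library. The listed genes summed to 85.8% to 88.3% of that total. TPM values are shares that keep no depth, so counting intervals cannot be given. Near-identical genes share reads.

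Groups and replicate numbers came from the library names. Values were transformed to log2(TPM + 1), which understates changes of low genes, and 10455 genes with at least 1 TPM in at least 3 libraries were tested with limma-trend (limma 3.58.1, R 4.3.3, 2-sided, no covariates), with Benjamini-Hochberg adjustment over all of them. The authors used edgeR, which needs counts. Ratios within pairs were compared by exact permutation over libraries (Python 3.11.15). The procedures were tested on made-up data with known answers. There the limma test called 42 of 100 planted log2 differences of 1 and 97 of 100 planted log2 differences of 2. It called 8 of 10255 genes without a planted difference. A 2-fold difference can thus often be missed at the adjusted threshold. Alternatives were a pseudocount of 0.1, no filter, median-ratio scaling, quantile normalization, leaving out each library, leaving out controls 1 and 4, and a replicate block. Positions came from GENCODE M21 (50 of 51 symbols found) and promoters from RefSeq. P-values measure the spread between these mice only.

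The genes, roles, related lists and cell type markers were chosen with earlier results of these data known, and so were controls 1 and 4 for omission. Genes named are the catalytic subunits and PA28, the member of smallest p and of highest level in every other role, members below an unadjusted p of 0.05 or without overlap, and the 2 of smallest p in each related list. Others (Psmd7, Psmd14, Psmd4, Psmd5, Psma6, Psme4, Psmf1, Tap1, Irf1, Nfe2l1, Maff, H2-D1 and B2m) were named after their values were seen. Some genes of the marker and related lists are not reported here.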

Additional observations from a re-analysis of the deposited data

Results flagged for a closer look

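Control group values of 54 genes and ratios were examined for a library far from the others, and 1 was found. Psma6, an alpha ring subunit of the core, was at 91.4 TPM in control 2 against 115, 114 and 113 TPM in controls 1, 3 and 4, a gap of 0.916 of the group's whole range. The oligo-1 libraries were at 101, 104 and 100.3 TPM, between these. Chance alone gives such a gap in about 1 in 20 groups.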

How the results depend on the processing

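Many fitted differences changed sign with the scaling or the libraries used, and the cause was not tested. Of the 47 tested members, 24 changed sign under median-ratio scaling, 19 under quantile normalization, 31 without controls 1 and 4 and 11 with the replicate block. The share of all tested genes with a fitted difference below 0 moved as well, from 73.6% in the main fit. It was 50.6%, 51.3%, 41.4% and 65.5% in these settings, in the same order. Values below are for the members named by rule. Of 517 values recomputed, 456 kept their direction and their side of the threshold or moved less than the spread between replicates, and 12 of the 61 others were losses of an unadjusted p below 0.05, all for Erap1 and H2-Q7. With a pseudocount of 0.1 or no filter, no value changed sign or side.

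Under median-ratio scaling the log2 differences became 0.095 (Psmb5), 0.117 (Psmb7), 0.142 (Psmb10), 0.158 (Psme2), 0.073 (Psma4), 0.041 (Psmc1) and 0.003 (Psme3ip1), and the median of the constitutive core 0.154. Under quantile normalization they became 0.026 (Psmb7), 0.119 (Psmb10), 0.088 (Psme2) and 0.034 (Psme3ip1), and 1 member, Psmb9, was higher at an unadjusted p below 0.05. Of all 10455 tested genes, 540 were higher under that normalization. Without controls 1 and 4, which leaves 2 against 3 libraries, 2 members were higher, beside 6.97% of all tested genes. The medians were then 0.13 for all members, 0.175 for the constitutive core and 0.304 for the core assembly chaperones, beside 0.06 for all tested genes. Among the members named by rule, those that changed sign were then Psmb5 (0.119), Psmb7 (0.056), Psmb10 (0.174), Psme2 (0.128), Psma4 (0.017), Psmc1 (0.077), Psmg2 (0.174), Psmg4 (0.378) and Psme3ip1 (0.033).

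Leaving out each library in turn, the number of members lower at an unadjusted p below 0.05 ran from 0 to 2 (Psmd8 and Psme3 without control 2, Psmd8 without control 3). Of all 10455 tested genes, 1521 were lower without control 2 and 771 without control 3. The ratio of Psmb10 to Psmb7 ran from -0.083 to 0.083, Psmb10 from -0.142 to 0.061, Psme2 from -0.083 to 0.038, Psma7 from -0.085 to 0.116 and Psme3ip1 from -0.274 to 0.017.

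Same-numbered libraries did not deviate together (correlations of 0.078, -0.015 and -0.115 over tested genes), so the replicate numbers were not taken as pairs. With the replicate block, Psmb10 was at 0.061 and Psme2 at 0.038, 0 members were called and 86 of all genes were. TPM keeps no depth, so what depth limits could not be judged.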
